A study of Mus musculus with 20 samples.

Results

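Axial loading of the tibia was compared with no loading in mice that all received dexamethasone (DEX), a synthetic glucocorticoid. The 10 libraries were chosen by their labels, 5 from loaded and 5 from unloaded tibiae of DEX-treated mice, out of 20 libraries in all; the other 10 came from vehicle-treated mice. The mice were male C57BL/6J aged 3 months, and no genetic change was introduced. DEX was given subcutaneously at 1 mg/kg in 5 daily injections. The left tibia was loaded at -13 N for 40 cycles per session, with a pulse of 0.1 s, a rest of 10 s and about 1300 microstrain. By the labels, loading was on days 1 and 3. For the sequenced tibiae, the study itself gives 3 sessions a week, with the final loading on day 5 and freezing hours later. The right tibia was left unloaded, so that the control limbs had the same steroid exposure. Whole frozen tibiae were pulverized for RNA, and neither the labels nor the methods say that marrow or adhering muscle was removed, although the study elsewhere calls the tissue cortical bone with periosteum. The question was which genes of bone, marrow and adjoining tissue differed between loaded and unloaded tibiae under the steroid.

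Bone forms in response to strain. Osteocytes embedded in the matrix sense fluid flow through channels such as Piezo1 and reduce secretion of sclerostin, the Wnt inhibitor encoded by Sost, after which osteoblasts lay down type I collagen and osteocalcin. Glucocorticoids act through the receptor encoded by Nr3c1, suppress osteoblast function and induce atrophy genes such as Fbxo32 and Trim63 in skeletal muscle.

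Total counts ranged from 7205139 to 10534393 in unloaded and from 4641425 to 10258492 in loaded libraries, and 34739 to 39972 genes had at least 1 count. Loaded library 4 stood apart, with the smallest total, the most genes detected and the highest background. Background was measured as CPM, counts scaled to the same library total, over 1428 olfactory and vomeronasal receptor genes, which bone should not express, and was 7949 CPM in loaded library 4 against 723.0 to 3210 CPM in the other 9. Its median rank correlation across genes with the other loaded libraries was 0.8851, and every other library had at least 0.9481 with its own group. Unloaded library 5 stood apart in another way, because the 18 skeletal muscle genes took 5.734% of its counts and 0.5147% to 1.645% of the counts of the other 4 unloaded libraries. Type I collagen, osteocalcin, sclerostin and the neutrophil gene S100a9 were present in every library, as a tibia with its marrow would give.

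**Figure D1:**
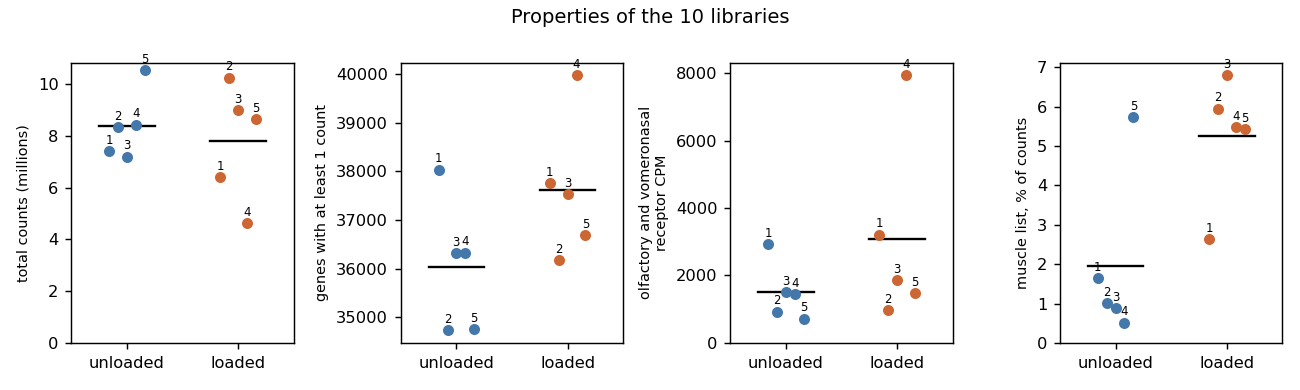
Total counts, genes with at least 1 count, CPM of olfactory and vomeronasal receptor genes, and the percentage of counts in the skeletal muscle list, for the 5 unloaded (blue) and 5 loaded (orange) tibiae of DEX-treated mice. Points are libraries with their number, and lines are group means. Loaded library 4 has the fewest counts (4641425) and the highest background (7949 CPM), and unloaded library 5 (5.734% muscle) lies among the loaded libraries in the last panel.

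Across all genes, 21499 passed the filter on low counts and were tested with the quasi-likelihood test of edgeR. No gene had an adjusted p under 0.05 (0.00% of those tested, lowest adjusted p = 0.593). Without adjustment, 1536 genes (7.14%) had p under 0.05, of which 1325 (6.16%) were higher and 211 (0.981%) were lower in loaded tibiae. There was no overlap between the groups in 111 genes that were higher (0.516%) and in 88 that were lower (0.409%), together 0.926% of those tested. DESeq2 called 2 genes (0.00931%), Lrtm1 and Myo5c, which were higher in loaded tibiae. It called no gene without unloaded library 4 (lowest DESeq2 adjusted p = 0.364) and none without loaded library 4 (lowest DESeq2 adjusted p = 0.0592). The median log2 fold change over all genes was 0.016, and 51.6% of genes lay above 0.

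The excess of higher over lower genes lay mainly in genes of low expression, and it was smaller without loaded library 4. Genes were divided by mean expression into 3 bins of equal size. In the lowest bin, 747 were higher and 10 lower at an unadjusted p under 0.05, in the middle bin 435 and 89, and in the highest bin 143 and 112. Without loaded library 4, 588 genes (2.71%) were higher and 154 (0.710%) were lower at that level, and 524 of the 1325 genes that were higher in all 10 libraries were among them. Without unloaded library 4, the counts were 827 and 131. Both directions together gave 794 and 970 genes without unloaded libraries 2 and 3, and 2870, 2782 and 2532 genes without unloaded library 1 and loaded libraries 2 and 5. The part of the background reads in the counts of low genes was not tested.

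Genes were then read by cell compartment, with 19 marker lists and 9 lists of pathways or gene families. They hold 445 entries, of which 419 passed the filter. Since these are bulk libraries, fewer cells of a type and less RNA per cell cannot be told apart for any of the lists.

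**Figure D2:**
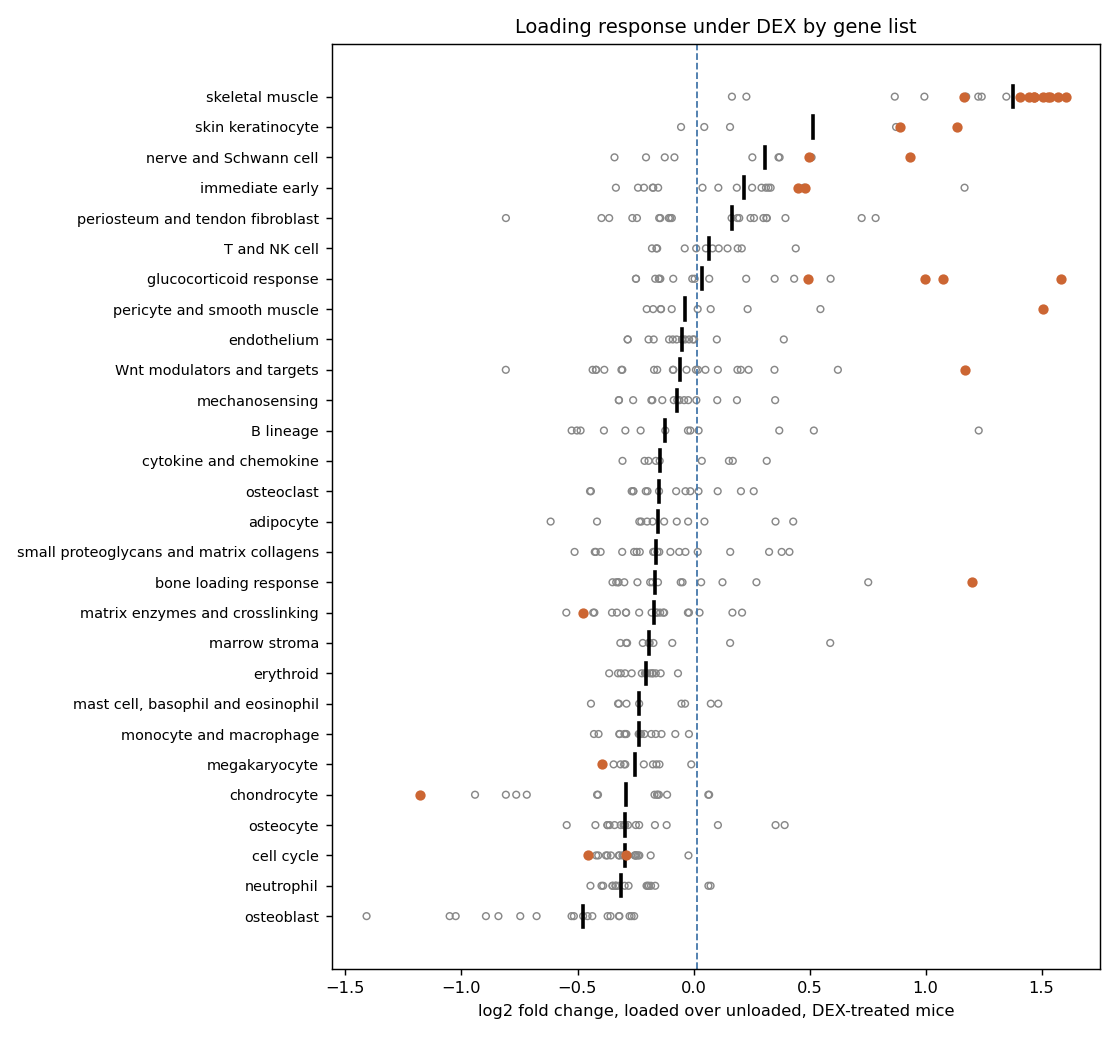
Log2 fold change of loaded over unloaded tibiae in DEX-treated mice for each tested member of the 28 lists. Filled orange points had an unadjusted p under 0.05 in edgeR, open points did not, black bars are list medians, and the dashed line is the median of all genes (0.016). Skeletal muscle lies to the right with a median of 1.38, and osteoblast genes lie to the left with a median of -0.48.

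Skeletal muscle genes stood highest among the lists. All 18 members were higher in loaded tibiae (51.6% of all genes were), 10 of them at an unadjusted p under 0.05 (6.16% of all genes), and the median log2 fold change was 1.38 (range 0.17 to 1.60). None reached an adjusted p under 0.05. The list contains sarcomere proteins, calcium pumps and metabolic enzymes of muscle fibres, and its summed level was 15801, 10369, 9056, 5224 and 65438 CPM in unloaded libraries 1 to 5 and 24770, 65905, 73430, 42485 and 59176 CPM in loaded libraries 1 to 5. The loaded libraries thus lay above 4 of the 5 unloaded libraries, and unloaded library 5 lay above 3 of the loaded libraries. The muscle share of the counts thus moved with the loaded group. With that share as a covariate, an alternative chosen after the data were seen, the medians of the other lists changed too. They were -0.29 for osteoblast, -0.30 for osteocyte, -0.13 for chondrocyte, -0.32 for osteoclast, -0.44 for neutrophil, -0.07 for monocyte and macrophage and -0.26 for cell cycle genes, and they lay above 0 for erythroid (0.23), B lineage (0.54) and marrow stroma genes (0.09).

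Myh4 (chr11:67238029-67260446), the myosin heavy chain of the fastest fibres, had 3037, 1488, 1323, 927.8 and 8444 CPM in unloaded and 3961, 14224, 11533, 5805 and 8651 CPM in loaded libraries. Its log2 fold change was 1.54 ± 0.58 (SE; edgeR adjusted p = 0.593), and the groups overlapped only through unloaded library 5. Ckm (chr7:19404776-19422841), the muscle creatine kinase, had 276.5, 118.1, 115.7, 53.90 and 801.5 CPM in unloaded and 383.8, 1057, 953.8, 703.9 and 777.9 CPM in loaded libraries, with a log2 fold change of 1.50 ± 0.58. The pattern of Ckm over libraries was like that of Myh4, with unloaded library 5 inside the loaded range. Tnnc2, the calcium-binding troponin of fast fibres, had the greatest log2 fold change of the list (1.60 ± 0.57), followed by Actn3, the actinin of fast fibres (1.57 ± 0.60). Ttn, the giant elastic protein of the sarcomere, had 2769 to 35265 CPM in unloaded and 12149 to 37191 CPM in loaded libraries (log2 fold change 1.24 ± 0.64). By fibre type, a grouping made after the values were seen, the slow-fibre genes Myh7 and Tnnt1 and the fast oxidative myosin Myh2 had log2 fold changes of 0.87, 0.23 and 0.17, none with an unadjusted p under 0.05, against 1.35 to 1.60 for Myh1, Myh4, Tnnc2, Tnni2, Tnnt3 and Actn3. The value for Myh2 ranged from -0.48 to 1.45 as each library was left out in turn. The difference between fibre types was not tested.

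Leaving out unloaded library 5, the unloaded library with the highest muscle share, changed the calls. Because it stood apart in muscle itself, calls of muscle genes without it are a description and not independent of that share. In the other 9 libraries, 206 of 22732 genes (0.906%) had an edgeR adjusted p under 0.05, and all 206 were higher in loaded tibiae. Of these, 15 belonged to the skeletal muscle list, and 176 had an unadjusted p under 0.05 in all 10 libraries. The muscle list median was then 2.38. Leaving out loaded library 4 as well gave 209 genes (0.974%), again all higher, and a muscle median of 2.44. With only loaded library 4 left out, or only unloaded library 4, the muscle medians were 1.42 and 1.11, and no gene reached an adjusted p under 0.05 (lowest 0.986 and 0.733).

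Promoters of muscle genes often carry the E-box CAGCTG, a letter sequence that myogenic factors such as MyoD recognize. The stretches below, each 250 bases directly upstream of a start site in RefSeq (build GRCm38.p6), are shown to let the E-box and TATA box be seen in muscle genes that were higher in loaded tibiae and in the osteoblast gene with the lowest log2 fold change. Capitals mark CAGCTG, which reads the same on both strands, and TATAAA on either strand. The positions are chr7:19410844-19411093 (+) for Ckm, chr8:123894776-123895025 (-) for Acta1, which encodes skeletal alpha-actin, chr11:67237562-67237811 (+) for Myh4, chr4:134314870-134315119 (+) for Trim63, and chr3:88384467-88384716 (-) for Bglap.
Ckm: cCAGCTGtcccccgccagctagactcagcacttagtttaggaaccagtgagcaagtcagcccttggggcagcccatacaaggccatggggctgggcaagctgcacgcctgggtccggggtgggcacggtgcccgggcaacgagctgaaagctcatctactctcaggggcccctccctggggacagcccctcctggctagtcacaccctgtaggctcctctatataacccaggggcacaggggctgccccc
Acta1: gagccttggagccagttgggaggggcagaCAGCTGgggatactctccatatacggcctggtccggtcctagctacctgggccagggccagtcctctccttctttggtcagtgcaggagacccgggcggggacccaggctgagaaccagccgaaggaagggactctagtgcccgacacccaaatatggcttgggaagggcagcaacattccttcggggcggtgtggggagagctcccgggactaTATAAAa
Myh4: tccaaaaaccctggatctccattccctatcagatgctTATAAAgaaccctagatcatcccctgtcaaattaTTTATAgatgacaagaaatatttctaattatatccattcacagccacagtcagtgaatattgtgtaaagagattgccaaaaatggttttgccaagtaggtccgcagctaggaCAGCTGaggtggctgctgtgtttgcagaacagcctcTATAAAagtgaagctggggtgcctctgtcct
Trim63: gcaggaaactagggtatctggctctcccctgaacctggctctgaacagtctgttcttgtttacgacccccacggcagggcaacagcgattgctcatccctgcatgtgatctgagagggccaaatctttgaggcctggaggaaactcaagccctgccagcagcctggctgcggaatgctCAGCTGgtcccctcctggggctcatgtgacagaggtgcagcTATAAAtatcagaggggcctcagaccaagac
Bglap: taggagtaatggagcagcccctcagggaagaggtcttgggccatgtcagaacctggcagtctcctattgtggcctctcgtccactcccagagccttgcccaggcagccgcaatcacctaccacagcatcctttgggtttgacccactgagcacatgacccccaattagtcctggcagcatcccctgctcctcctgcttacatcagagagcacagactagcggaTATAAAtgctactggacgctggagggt

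In windows of 300 bases (250 before and 50 after a start), CAGCTG occurred in 41.2% of the 17 windows of 13 muscle genes found in RefSeq and in 16.3% of all 32851 windows. For the 18 windows of 12 osteoblast genes the share was 22.2%. TATAAA occurred in 29.4% of the muscle windows, 22.2% of the osteoblast windows and 13.6% of all windows. The stretches shown were chosen in part for their motifs, and the letters are a description of these windows.

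Osteoblast genes were lower in loaded tibiae. Of 20 members, 19 were tested and all 19 were lower (48.4% of all genes were), with a median log2 fold change of -0.48 (range -1.41 to -0.26). None had an unadjusted p under 0.05 in edgeR. Bglap3 had 1 to 26 counts per library and was not tested. The summed level was 41274, 43333, 21518, 13811 and 9790 CPM in unloaded libraries 1 to 5 and 17416, 29077, 17809, 6104 and 7782 CPM in loaded libraries 1 to 5. The groups overlapped widely, and the unloaded libraries alone spanned 9790 to 43333 CPM. The median was -0.33 without loaded library 4, -0.315 without unloaded library 1, -0.59 without unloaded library 4 and -0.61 without unloaded library 5.

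Bglap (chr3:88383501-88384464) encodes osteocalcin, a protein of mature osteoblasts, and shares near-identical sequence with Bglap2 and Bglap3, so the division of reads among the copies is uncertain. It had 216.0, 199.4, 65.70, 31.04 and 27.19 CPM in unloaded and 52.90, 92.79, 36.57, 8.696 and 11.08 CPM in loaded libraries. Libraries 1 and 2 were high and libraries 4 and 5 low on both sides, and the groups overlapped. Bglap gave a log2 fold change of -1.41 ± 0.68 (edgeR adjusted p = 0.593). Bglap2 gave -1.05 ± 0.61, and -0.43 with the muscle share as a covariate.

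Col1a1 (chr11:94936224-94953042), the main chain of type I collagen, ran from 3542 to 23291 CPM in unloaded and from 2611 to 15063 CPM in loaded libraries, with a log2 fold change of -0.84 ± 0.60. With each library left out in turn it ranged from -1.27 (without loaded library 2) to -0.54 (without unloaded library 1). Its partner chain Col1a2 gave -0.75 ± 0.54, and Sparc, a collagen-binding matrix protein, gave -0.68 ± 0.43. Ifitm5, a membrane protein of mineralizing osteoblasts, gave -1.02 ± 0.48 at 5.565 CPM in unloaded tibiae. With the muscle share as a covariate, the values were -0.28 for Col1a1, -0.36 for Col1a2, -0.29 for Sparc and -0.59 for Ifitm5. The transcription factors that set the lineage differed less, with -0.28 ± 0.20 for Runx2 and -0.37 ± 0.24 for Sp7. Leaving out each library in turn moved most of these values by over 1.5 times. The value nearest to 0 was -0.98 for Bglap, -0.53 for Bglap2, -0.45 for Sparc, -0.49 for Ifitm5 and -0.14 for Sp7, all without unloaded library 1, and -0.42 for Col1a2 without unloaded library 2 and -0.15 for Runx2 without loaded library 4. The lowest was -1.99 for Bglap, -1.40 for Bglap2, -1.17 for Col1a2 and -0.98 for Sparc, all without loaded library 2.

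**Figure D3:**
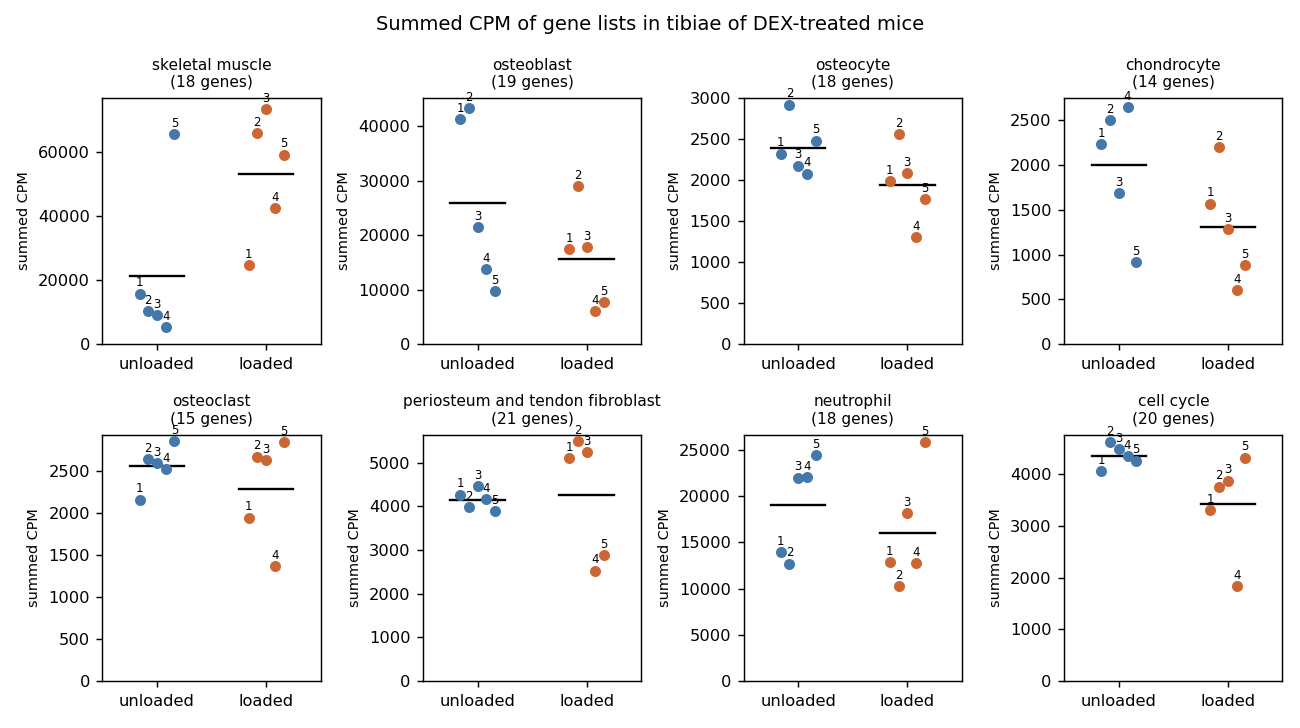
Summed CPM of the tested members of 8 lists in the 5 unloaded (blue) and 5 loaded (orange) tibiae of DEX-treated mice, with library numbers and lines at group means; each axis starts at 0. Muscle sums of all 5 loaded libraries lie above those of unloaded libraries 1 to 4, osteoblast sums run from 6104 to 43333 CPM, and loaded library 4 is lowest of the loaded libraries for osteoblast, osteocyte, chondrocyte, osteoclast, periosteum and cell cycle genes.

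Osteocyte genes showed a smaller shift. Of 18 members, 15 were lower and 3 higher, with a median log2 fold change of -0.30 and no member with an unadjusted p under 0.05. Sost (chr11:101962458-101967015) had 459.2, 635.0, 469.7, 388.1 and 619.9 CPM in unloaded and 400.4, 523.4, 453.8, 280.6 and 330.6 CPM in loaded libraries. The groups overlapped, loaded libraries 4 and 5 lay below all unloaded libraries, and the log2 fold change was -0.37 ± 0.22 (edgeR adjusted p = 0.593), or -0.62 with the muscle share as a covariate. Dmp1, which binds mineral and regulates phosphate, gave -0.34 ± 0.25, and Tmem119 had the lowest value of the list (-0.55 ± 0.27). With each library left out in turn, Dmp1 ranged from -0.57 (without loaded library 2) to -0.20 (without unloaded library 2) and Tmem119 from -0.71 (without unloaded library 5) to -0.35 (without unloaded library 1), and Tmem119 was -0.20 with the muscle share as a covariate. Without loaded library 4 the list median was -0.19.

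Cartilage genes were lower on balance. Of 22 chondrocyte entries, 14 were tested, 12 were lower and 2 higher, and the median was -0.29. It was -0.45 without loaded library 4 and -0.50 without unloaded library 5, against -0.17 without unloaded library 1 and -0.15 without loaded library 5. The other 8 (Col9a1, Matn1, Matn3, Cnmd, Ucma, Snorc, Mia and Epyc) had at most 41 counts in any library. Col2a1 (chr15:97975602-98004695), the main collagen of cartilage, was the member with an unadjusted p under 0.05 (0.981% of all genes were lower at that level). It had 196.2, 328.3, 98.47, 61.36 and 52.98 CPM in unloaded and 36.39, 151.5, 64.86, 29.43 and 42.19 CPM in loaded libraries. Unloaded libraries 1 and 2 were high, loaded library 2 was the highest of its group, and the groups overlapped. The log2 fold change was -1.18 ± 0.53 (edgeR unadjusted p = 0.0440, adjusted p = 0.593). Without loaded library 4 its log2 fold change was -0.996, with an unadjusted edgeR p of 0.0963. With each library left out in turn it ranged from -1.78 (without loaded library 2) to -0.65 (without unloaded library 2). Prg4, the lubricin of joint surfaces, gave -0.76 ± 0.51 with 1795 CPM in unloaded library 4 and at most 598.1 CPM elsewhere, and its sign turned without that library (0.04). The fibrillar collagens Col11a1 and Col11a2 gave -0.81 ± 0.47 and -0.72 ± 0.50. With each library left out in turn they ranged from -1.19 to -0.51 and from -1.18 to -0.36, lowest for both without loaded library 2 and nearest to 0 without unloaded libraries 1 and 2, respectively. Acan, the aggrecan core protein, and its regulator Sox9 were close to 0, with -0.15 ± 0.26 and -0.11 ± 0.15.

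Fibroblasts of periosteum and tendon showed no common direction, with 11 members higher and 10 lower, a median of 0.16 and no unadjusted p under 0.05. The summed level was 3889 to 4467 CPM in unloaded libraries. In loaded libraries 1, 2 and 3 it was 5108, 5494 and 5234 CPM, above all unloaded libraries, whereas loaded libraries 4 and 5 had 2528 and 2881 CPM, below all of them. Values in the loaded group were thus far more spread than in the unloaded group. Col3a1, a collagen of loose and healing matrix, followed this division with 1494, 1939 and 1787 CPM in loaded libraries 1 to 3 and 829.8 and 731.3 CPM in loaded libraries 4 and 5 (log2 fold change 0.25 ± 0.30).

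Wnt modulators included the study gene with the smallest p. Sfrp2 (chr3:83766321-83774316), a secreted frizzled-related protein that binds Wnt ligands, had 7.502, 4.320, 10.55, 6.376 and 7.042 CPM in unloaded and 26.31, 18.02, 17.62, 13.04 and 5.542 CPM in loaded libraries. Loaded libraries 1 to 4 lay above all unloaded libraries, and loaded library 5 lay inside the unloaded range. The log2 fold change was 1.17 ± 0.34 (edgeR unadjusted p = 0.00380, adjusted p = 0.593). It was 1.24 without loaded library 4, 1.12 without unloaded library 4 and 1.36 with the muscle share as a covariate. Of the 22 Wnt genes tested, 10 were higher and 12 lower, and the median was -0.06. Sfrp1 gave 0.10 ± 0.19, Axin2, a target of Wnt signalling, gave 0.20 ± 0.18, and Notum, an enzyme that inactivates Wnt, gave -0.81 ± 0.43.

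Mechanosensing genes differed little, with 4 of 15 higher, a median of -0.07 and none with an unadjusted p under 0.05. Piezo1 (chr8:122481698-122551329) had 148.9 to 162.0 CPM in unloaded libraries. In loaded libraries it had 140.6, 170.3, 145.3, 77.26 and 155.0 CPM, and library 4 alone lay far from the rest. Its log2 fold change was -0.18 ± 0.19, and -0.03 without loaded library 4. Hes1, a transcriptional repressor downstream of Notch, had 5.174 to 8.763 CPM in unloaded and 5.668 to 8.529 CPM in loaded libraries, with a log2 fold change of 0.19 ± 0.22.

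Of the 20 genes that the study named in mouse tibia or measured in bone, 19 were tested, 9 were higher and 10 lower, and Sfrp2 was the member with an unadjusted p under 0.05, which 7.14% of all genes had. The study chose part of these genes on these libraries, so the count is not independent evidence. In the axis that controls osteoclast formation, the ligand gene Tnfsf11 gave 0.27 ± 0.30 and the decoy receptor gene Tnfrsf11b gave -0.30 ± 0.23. Ostn, which encodes the peptide osteocrin, gave 0.72 ± 0.46, and ranged from 0.23 without loaded library 1 to 1.07 without unloaded library 1. Ptgs2, the inducible enzyme of prostaglandin synthesis, had 0.8550 to 2.468 CPM over the 10 libraries and gave -0.32 ± 0.41. With each library left out in turn, Ptgs2 ranged from -0.48 to -0.10, Tnfsf11 from 0.12 to 0.43 and Tnfrsf11b from -0.45 to -0.17.

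The bone loading response list, with growth factors and Wnt ligands known to follow loading, had 5 of 16 tested members higher and a median of -0.17. Its member with an unadjusted p under 0.05 was Ankrd1 (6.16% of all genes were higher at that level). Ankrd1, a stretch-responsive nuclear protein of striated muscle, had 1.604 to 17.66 CPM in unloaded and 10.23 to 32.25 CPM in loaded libraries (log2 fold change 1.201 ± 0.47). With the muscle share as a covariate the value was 0.018, and with background CPM added it was -0.29. Il11 had 1 to 10 counts per library and was not tested.

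Immediate early genes had 12 of 18 members higher and a median of 0.22, which was -0.08 without loaded library 4. Jun gave 0.45 ± 0.20 and the orphan receptor gene Nr4a1 gave 0.48 ± 0.20, both with an unadjusted p under 0.05 in edgeR (6.16% of all genes were higher at that level). Without loaded library 4 the unadjusted edgeR p was 0.0651 for Jun and 0.0838 for Nr4a1, whose log2 fold change was then 0.30. Nr4a1 had 9.959 to 15.17 CPM in unloaded and 12.72 to 26.76 CPM in loaded libraries, where library 4 was highest. Jun had 40.36 to 82.23 CPM in unloaded and 55.39 to 93.99 CPM in loaded libraries, and unloaded libraries 4 and 5 lay inside the loaded range. With the muscle share as a covariate, the log2 fold change of Jun was 0.04. Fosb had the greatest value of the list (1.17 ± 0.71), which was -0.13 without loaded library 4.

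Glucocorticoid response genes split within the list. Of 18 members, 10 were higher and 8 lower, the median was 0.04, and 4 were higher at an unadjusted p under 0.05 (6.16% of all genes were). These were Fbxo32, Trim63, Pdk4 and Sgk1. Fbxo32 (chr15:58175879-58214932), which encodes the ubiquitin ligase atrogin-1, had 48.76, 62.20, 57.43, 43.31 and 90.90 CPM in unloaded and 84.32, 227.0, 128.2, 89.97 and 108.3 CPM in loaded libraries. Unloaded library 5 was the only unloaded value inside the loaded range. The log2 fold change was 1.08 ± 0.28 (edgeR unadjusted p = 0.00170, adjusted p = 0.593). Trim63, the ubiquitin ligase MuRF1, gave 1.58 ± 0.56, and Pdk4, which shifts muscle from glucose to fat oxidation, gave 1.00 ± 0.39. All of these are strongly expressed in muscle. With the muscle share as a covariate, the log2 fold changes were 0.48 for Fbxo32, -0.09 for Trim63 and -0.11 for Pdk4.

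Sgk1 (chr10:21882184-21999903), a kinase induced by steroids in many tissues, had 23.41, 27.15, 27.93, 35.25 and 32.50 CPM in unloaded and 37.12, 52.33, 36.69, 41.31 and 38.67 CPM in loaded libraries. Every loaded library lay above every unloaded library, which held for 0.516% of all genes. The log2 fold change was 0.49 ± 0.15 (edgeR unadjusted p = 0.00467, adjusted p = 0.593). It was 0.49 without loaded library 4, 0.56 without unloaded library 4, and 0.48 with the muscle share as a covariate. The other 14 members, among them the classical receptor targets Fkbp5, Tsc22d3 and Per1, lay between -0.25 and 0.59, and the receptor gene Nr3c1 gave -0.25 ± 0.17.

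**Figure D4:**
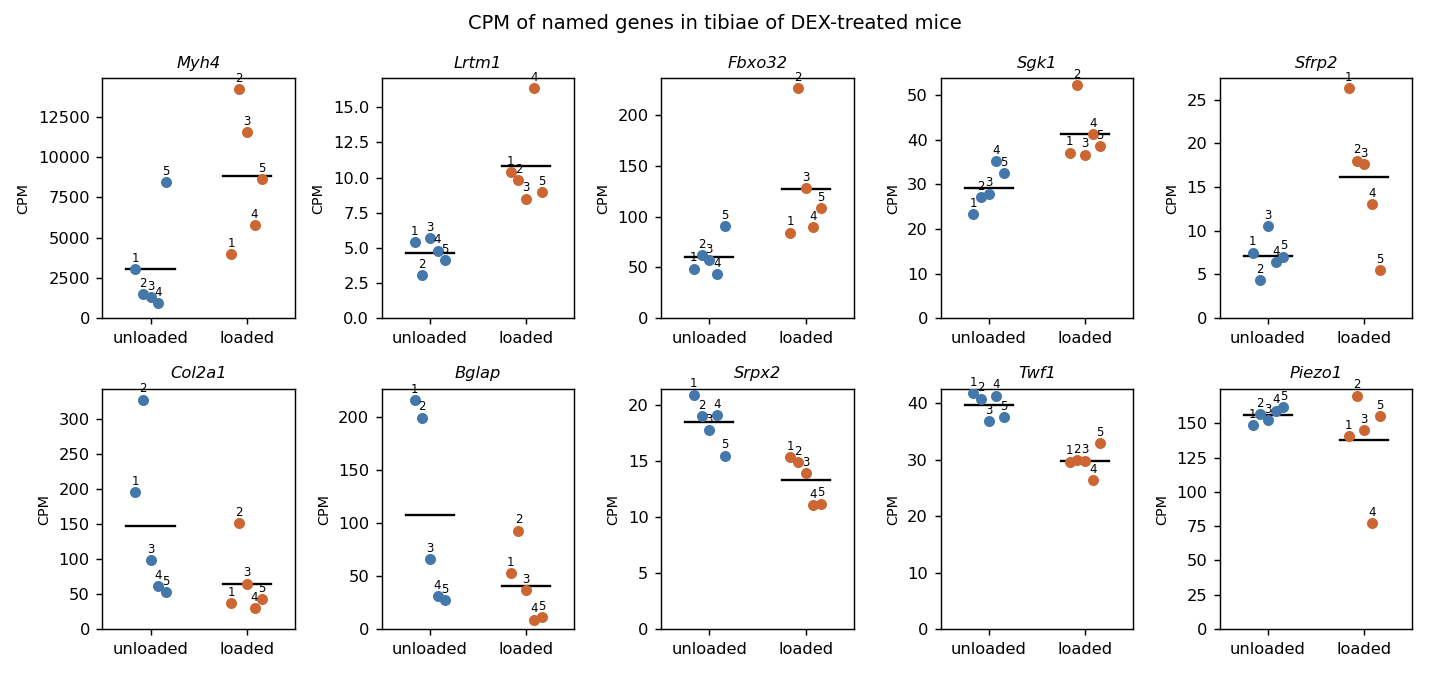
CPM of 10 named genes in the 5 unloaded (blue) and 5 loaded (orange) tibiae of DEX-treated mice, with library numbers and lines at group means; each axis starts at 0. Lrtm1 and Sgk1 lie higher and Srpx2 and Twf1 lower in every loaded library, and for Myh4 and Fbxo32 unloaded library 5 lies among the loaded libraries.

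Marrow lists were mostly lower in loaded tibiae, without a member passing the adjusted test. Neutrophil genes were lower in 16 of 18 cases (median -0.31), monocyte and macrophage genes in 16 of 16 (median -0.23), erythroid genes in 15 of 15 (median -0.21) and megakaryocyte genes in 10 of 10 (median -0.25). S100a9, a calcium-binding protein of neutrophils, had 1918 to 4036 CPM in unloaded and 1440 to 3886 CPM in loaded libraries (log2 fold change -0.35 ± 0.35). Lyz2, the lysozyme of myeloid cells, had 1368 to 2612 CPM in unloaded libraries and 1108, 1413, 2048, 648.7 and 2288 CPM in loaded libraries (-0.43 ± 0.33). Gp1bb, a platelet adhesion receptor subunit, gave -0.39 ± 0.16 and was the member of these lists with an unadjusted p under 0.05 (0.981% of all genes were lower at that level). These medians moved toward 0 without loaded library 4, to -0.19, -0.13, -0.07 and -0.13, whereas the neutrophil median was -0.58 without loaded library 5. With the muscle share as a covariate, 13 of 15 erythroid genes were higher in place of none. B lineage genes had a median of -0.12 and T and NK cell genes a median of 0.07. Mast cell, basophil and eosinophil genes had a median of -0.23 and marrow stroma genes a median of -0.19.

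Osteoclast genes had 4 of 15 members higher and a median of -0.15, which was -0.03 without loaded library 4. Mmp9, a matrix-degrading enzyme made by osteoclasts and neutrophils, gave -0.21 ± 0.28, and Ctsk, the cathepsin that digests bone collagen, gave 0.20 ± 0.23. The medians of endothelial (-0.05), pericyte and smooth muscle (-0.04) and adipocyte genes (-0.15) were also small. In the pericyte list, Des was the member with an unadjusted p under 0.05 (1.51 ± 0.54), and 6.16% of all genes were higher at that level. Desmin is also abundant in skeletal muscle, and its log2 fold change was -0.01 with the muscle share as a covariate.

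Cell cycle genes were lower in 20 of 20 cases, with a median of -0.30 (range -0.46 to -0.02). The summed level was 4055 to 4628 CPM in unloaded libraries and 3305, 3760, 3878, 1830 and 4322 CPM in loaded libraries. Loaded library 4 was far below the rest, and the median without it was -0.18. Plk1 and Cdk1, kinases that drive entry into mitosis, gave -0.46 ± 0.21 and -0.29 ± 0.13, each with an unadjusted p under 0.05 in edgeR (0.981% of all genes were lower at that level). Without loaded library 4 they gave -0.29 and -0.24, with unadjusted edgeR p of 0.0543 and 0.0715. Mcm4, a subunit of the replicative helicase, was the list member whose groups did not overlap (0.409% of all genes were lower without overlap). It had 93.65 to 106.7 CPM in unloaded and 49.50 to 92.45 CPM in loaded libraries. Without loaded library 4 its log2 fold change was -0.19, with an unadjusted edgeR p of 0.0753.

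Among enzymes of collagen synthesis and matrix turnover, 17 of 20 were lower, and the median was -0.17. P4ha1 (chr10:59323296-59373304), a catalytic subunit of collagen prolyl 4-hydroxylase, had 70.49, 63.19, 63.27, 54.14 and 62.73 CPM in unloaded and 41.94, 55.35, 49.27, 32.28 and 46.35 CPM in loaded libraries. Loaded library 2 was the only loaded value inside the unloaded range. P4ha1 gave a log2 fold change of -0.48 ± 0.15 (edgeR unadjusted p = 0.00658, adjusted p = 0.593), and it was -0.38 without loaded library 4. Serpinh1, the collagen chaperone, gave -0.55 ± 0.27, and Plod2, a collagen lysyl hydroxylase, gave -0.43 ± 0.28. Small proteoglycans and matrix collagens had 5 of 20 members higher and a median of -0.16, and Fn1, fibronectin, gave -0.40 ± 0.28. Cytokine and chemokine genes had 9 of 16 members tested and a median of -0.15.

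Nerve and keratinocyte lists held the other members that were higher at an unadjusted p under 0.05 (6.16% of all genes were). In the nerve list, Prx, which organizes myelin, gave 0.50 ± 0.23. The nerve list median was 0.31, and its summed level was 245.4 to 304.1 CPM in unloaded and 186.5 to 301.6 CPM in loaded libraries. In the keratinocyte list, 6 of 10 members were tested, and the basal keratins Krt5 and Krt14 had at most 21 and 12 counts in any library. Its median was 0.52, and 0.18 without loaded library 4. Krt1 was highest in loaded library 4 (8.864 CPM against 1.834 to 3.946 CPM in the other loaded libraries), and Trp63 had a log2 fold change of 0.89 ± 0.32.

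Among the list members with an unadjusted edgeR p under 0.05, the p stayed under 0.05 in all 10 fits with a library left out for Sfrp2, Sgk1, Fbxo32, P4ha1, Des, Trp63 and Tnnc2. It did so in 4 of the 10 fits for Col2a1, 6 for Nr4a1 and Gp1bb, 3 for Plk1, 2 for Jun and Cdk1, and 1 for Prx.

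Outside the lists, genes were named by their unadjusted p among those whose groups did not overlap. Lrtm1 (chr14:29018208-29033645), a leucine-rich repeat membrane protein, had 5.432, 3.086, 5.700, 4.812 and 4.117 CPM in unloaded and 10.38, 9.819, 8.512, 16.39 and 8.943 CPM in loaded libraries. Its lowest loaded value lay above its highest unloaded value, and loaded library 4 was highest. The log2 fold change was 1.22 ± 0.24 (edgeR adjusted p = 0.593), and it was 1.03 without loaded library 4 and 1.32 with the muscle share as a covariate. Myo5c (chr9:75232020-75305451), a class V myosin, had 2.592 to 4.527 CPM in unloaded and 5.992 to 13.21 CPM in loaded libraries (1.32 ± 0.26).

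The other 8 genes named on the higher side had log2 fold changes of 0.70 to 1.60. Mss51, a regulator of muscle metabolism, had 2.070 to 7.909 CPM in unloaded and 8.622 to 29.73 CPM in loaded libraries (1.60 ± 0.37). Pink1 (chr4:138313409-138326307), the kinase that marks damaged mitochondria, had 55.82 to 103.0 CPM in unloaded and 111.1 to 133.5 CPM in loaded libraries (0.70 ± 0.16). Acsl6, which activates long-chain fatty acids, gave 0.96 ± 0.19, and Mafa, a transcription factor, gave 1.31 ± 0.29. Prob1, Kbtbd12, Wipf3 and Pknox2 gave 0.90, 1.11, 1.05 and 0.90. With the muscle share as a covariate, the values were 0.32 for Pink1, 0.41 for Prob1, 0.65 for Kbtbd12, 0.57 for Pknox2 and 1.05 for Mss51.

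On the lower side, Twf1 (chr15:94577951-94589889), which encodes the actin-binding protein twinfilin-1, had 41.78, 40.85, 36.91, 41.39 and 37.59 CPM in unloaded and 29.67, 30.00, 29.85, 26.42 and 33.00 CPM in loaded libraries. The 2 ranges were clearly apart, and the log2 fold change was -0.41 ± 0.11 (edgeR unadjusted p = 0.00217, adjusted p = 0.593). It was -0.37 without loaded library 4 and -0.37 with the muscle share as a covariate. Srpx2 (chrX:133908426-133932446), a secreted sushi-repeat protein, had 15.49 to 20.95 CPM in unloaded and 11.04 to 15.35 CPM in loaded libraries (-0.47 ± 0.15), and -0.31 with the muscle share as a covariate. Atp1b3, a subunit of the sodium pump, had 63.38 to 70.72 CPM in unloaded and 41.64 to 57.69 CPM in loaded libraries (-0.38 ± 0.13). The other 7 (Bud31, Yipf5, Dzip3, Slf1, Tbc1d31, Nrm and Zfp518a) lay between -0.47 and -0.34.

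The loading response under DEX was set against that in vehicle-treated mice with an interaction term over all 20 libraries. The groups share no library. Of 22659 genes tested, none had an edgeR adjusted p under 0.05 for the difference (0.00%, lowest adjusted p = 0.0854), and 3528 (15.6%) had an unadjusted p under 0.05, with 2376 (10.5%) higher and 1152 (5.08%) lower under DEX. DESeq2 called 158 of 22659 genes, 147 higher and 11 lower under DEX. The libraries left out in turn were those of DEX-treated mice. Without unloaded library 5, edgeR called 291 of 23704 genes at the adjusted threshold, 287 higher and 4 lower under DEX. Without unloaded library 2 it called 1 of 23793, and the 3528 genes became 2208 without loaded library 4. Members of the lists that were tested in the DEX libraries are described.

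Skeletal muscle genes lay on opposite sides of 0 in the 2 treatments. None of the 18 muscle genes was higher in loaded tibiae of vehicle-treated mice (median log2 fold change -1.13; 48.3% of all genes were above 0), and the difference between DEX and vehicle was above 0 for all 18, with a median of 2.57, and at an unadjusted p under 0.05 for 17 (10.5% of all genes). The muscle share of the counts was 0.515% to 5.73% in unloaded and 2.64% to 6.80% in loaded libraries of DEX-treated mice. It was 1.96% to 9.97% in unloaded and 0.997% to 5.16% in loaded libraries of vehicle-treated mice. The difference for Myh4 was 2.49 ± 0.81 and that for Myoz1, a Z-disc protein of fast fibres, was 3.08 ± 0.83.

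Cartilage genes differed the other way. In vehicle, 9 of 14 chondrocyte genes were higher in loaded tibiae (median 0.73). The difference was below 0 for 11 of 14 (46.1% of all genes were below 0), with a median of -1.32, and 7 were lower at an unadjusted p under 0.05 (5.08% of all genes). Further chondrocyte members passed the filter only once the vehicle libraries were added, so their differences depend on that filter and are left out. Acan had a log2 fold change of 2.07 in vehicle, with a difference of -2.21 ± 0.46 (edgeR unadjusted p = 9.68e-05, adjusted p = 0.106). Sox9 had 1.45 in vehicle and a difference of -1.54 ± 0.38, and Sfrp1 had 2.16 and a difference of -2.03 ± 0.47. Both were near 0 under DEX, as given above.

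For osteoclast genes, 14 of 15 were higher in vehicle (median 0.60), and the difference was below 0 for all 15, with a median of -0.66 and 8 with an unadjusted p under 0.05 (5.08% of all genes were lower at that level, and 46.1% lay below 0). For Mmp9 the difference was -0.79 ± 0.31. Monocyte and macrophage genes had a median difference of -0.52, below 0 for 16 of 16, with 5 at an unadjusted p under 0.05. Cell cycle genes had a median difference of -0.42, below 0 for 19 of 20, with 8 at that level. These counts are to be read against the same 5.08% and 46.1%. In the 10 DEX libraries, the medians of these lists moved toward 0 without loaded library 4, to -0.13 and -0.18. Osteoblast genes had medians of -0.21 in vehicle, where 4 of 19 were higher after loading, and of -0.47 under DEX in the model of 20 libraries, and no member had an unadjusted p under 0.05 for the difference. Srpx2 was 0.85 in vehicle and had a difference of -1.31 ± 0.26 (edgeR adjusted p = 0.0854), Nr4a1 had a difference of 1.23 ± 0.33, and Sfrp2, which was 2.06 in vehicle, had a difference of -0.86 ± 0.57.

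**Figure D5:**
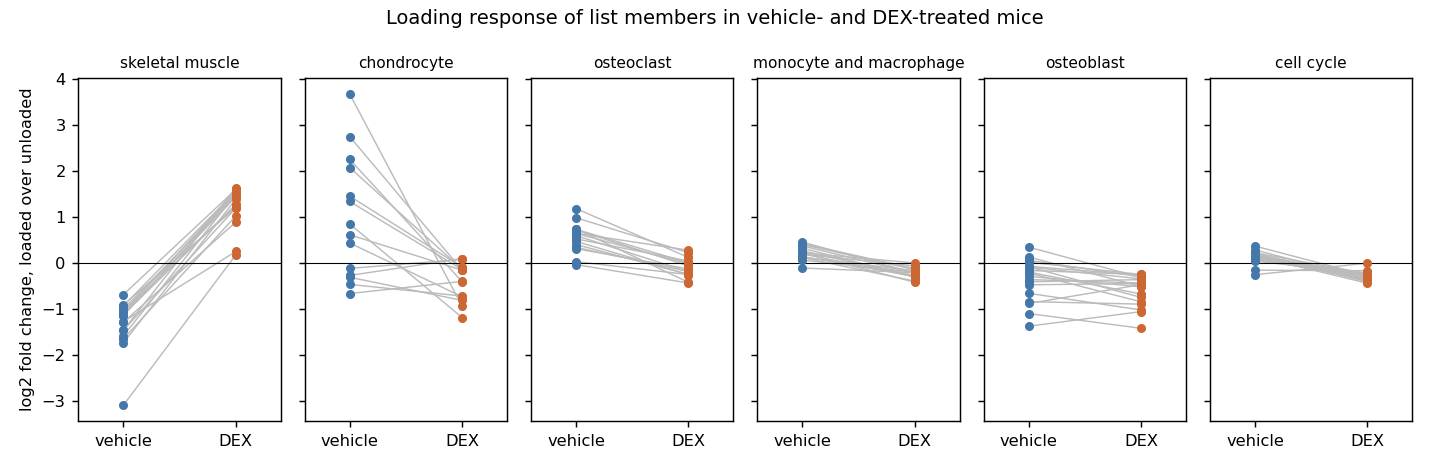
Log2 fold change of loaded over unloaded tibiae for members of 6 lists in vehicle-treated (blue) and DEX-treated mice (orange), with lines joining the same gene and a line at 0. All 18 muscle genes lie below 0 in vehicle and above 0 under DEX, and 9 of 14 chondrocyte genes lie above 0 in vehicle, with values up to 3.67.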

How the data were processed

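The authors deposited expected counts per gene, which are estimates and were rounded here to whole numbers. Per the labels, reads were aligned with STAR 2.7.10a and counted with RSEM 1.2.28 on GRCm38, from libraries of a stranded total RNA kit. The 10 DEX libraries were tested with the quasi-likelihood F test of edgeR 4.0.16 in R 4.3.3 (not robust, no covariate) after filterByExpr and TMM normalization, with Benjamini-Hochberg adjustment at 0.05. Standard errors are the absolute log2 fold change divided by the square root of F. CPM were TMM-scaled over the 21499 genes tested. Interactions used all 20 libraries. Positions are from GENCODE M21 on GRCm38.

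Depth limits low genes, and p-values measure the spread between libraries. Nothing in the labels ties a library number to a mouse, so limbs were not paired. The study removed a dataset it calls DEX-4 without saying from which limb, so all 10 libraries were kept and each library numbered 4 was left out in turn. In each vehicle group, 1 library whose number matches no label was used by its group alone.

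The members and lists were chosen with earlier results of these data known. Named genes are 20 that the study names or measures in bone; in each list the members with an unadjusted p under 0.05 (at most the 5 with the smallest p) and the 2 with the highest mean CPM; the 10 higher and 10 lower genes with the smallest p among those whose groups did not overlap, with a mean of at least 1 CPM in a group and no predicted or pseudogene symbol; and genes called by an alternative that called 5 or fewer. Other genes were chosen after their values were seen. Alternatives were DESeq2 1.42.0, its size factors, other filters, the number as a block, background CPM as a covariate, all 4 groups in the same model, and libraries left out. Chosen after seeing the data were the muscle share as a covariate (alone or with background), DESeq2 without a library numbered 4, the fits without loaded library 4 and unloaded library 5 together, and the libraries of the block fit without the block. The edgeR and DESeq2 fits were tested on simulated data. Some list members are not reported here.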

Additional observations from a re-analysis of the deposited data

Results flagged for a closer look

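The muscle share of the counts in unloaded library 5 (5.734%) lay far from the other 4 unloaded libraries, with a gap of 0.783 of the range of its group. The summed level of the skeletal muscle list in that library (65438 CPM) did so as well, with a gap of 0.824 of the range. The summed level of the keratinocyte list in loaded library 4 (57.86 CPM against 24.17 to 33.17 CPM in the other loaded libraries) had a gap of 0.733 of the range. Loaded library 4 also had the highest background. Gaps were compared with Dixon's 95% critical value for 5 samples, and chance alone flags about 1 in 20 groups.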

How the results depend on the processing

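The counts of called genes changed with the processing, and the cause was not tested. With all 10 libraries, 1 gene (Mss51) passed the adjusted threshold with the replicate number as a block, 2 with DESeq2, and 64 with DESeq2 and the block, against 0 with edgeR. Leaving out each library gave 0 to 206 genes, with 206 only without unloaded library 5, and leaving out loaded library 4 and unloaded library 5 together gave 209. Same-numbered loaded and unloaded libraries had correlated deviations for numbers 1, 2 and 5 (0.367, 0.376 and 0.339) but not for 3 and 4 (0.0322 and 0.0305), so the numbers were not taken to pair limbs; loaded libraries 3 and 4 correlated best with unloaded libraries 5 and 1. In the block fit with DESeq2, the lower genes included Bglap (-1.42, DESeq2 adjusted p = 4.469e-08), Bglap2, Col1a1, Col1a2, Sparc and Col2a1, none of which edgeR called with the block.

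Genes at an unadjusted p under 0.05 (1536) numbered 742 to 2870 with each library left out, 520 without both libraries numbered 4, 982 without loaded library 4 and unloaded library 5, 667 with DESeq2 without loaded library 4, 3291 without a filter, 2431 with the block, 617 with the muscle covariate and 488 with muscle and background covariates. Without a filter, the median of all genes moved to 0.187.

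For the difference between DEX and vehicle (0 genes with edgeR), the counts were 158 with DESeq2, 20 without a filter, 2 with at least 10 counts in every library, 232 with the block, 8 in the libraries of that fit without the block, an alternative chosen after seeing the data, 247 without loaded library 4 and unloaded library 5, and 0 to 291 with each of the 10 DEX libraries left out (no vehicle library was left out), with 291 without unloaded library 5 and 1 without unloaded library 2. At an unadjusted p under 0.05 (3528 genes) they were 2208 to 4856 with each DEX library left out, 1802 without both libraries numbered 4, 5776 without a filter, 2127 with at least 10 counts, 1530 with the background covariate and 2035 without loaded library 4 and unloaded library 5.

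List medians outside their range with each library left out included -0.65 for chondrocyte genes without loaded library 4 and unloaded library 5. With block and background covariate they included 0.59 for pericyte and 0.36 for glucocorticoid genes. With muscle and background covariates they included 0.29 for marrow stroma, 0.12 for megakaryocyte, 0.31 for mast cell and 0.14 for matrix enzyme genes. That fit also gave 0.38 for periosteum and tendon fibroblast and 0.19 for endothelial genes. The erythroid median reached 0.42 with both covariates and 0.23 with muscle alone, outside its range of -0.37 to -0.07 with each library left out. The B lineage median reached 0.54 with the muscle covariate, outside its range of -0.41 to 0.18. Over 26 alternatives, the medians of osteoblast, osteocyte, chondrocyte, neutrophil, cell cycle, nerve and keratinocyte genes kept their sign but not their size, since with muscle and background covariates they were -0.145, -0.069, -0.118, -0.099, -0.0042, 0.239 and 0.012, and that of muscle genes kept it in 24, the exceptions being the fits with the muscle covariate, which is computed from the same genes.

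Signs of single genes turned as follows. With the muscle covariate they were Prg4 0.74, Pdk4 -0.11, Des -0.0083, Ctsk -0.18, Trim63 -0.088, Ckm -0.040, Acan 0.11, Tnni2 -0.086, Ptgs2 0.16, Myh2 -1.45, Ttn -0.25, Myh1 -0.11, Tnnt3 -0.083 and Tnnt1 -0.12. With muscle and background covariates they were Prg4 1.14, Piezo1 0.13, Tnnc2 -0.11, Mmp9 0.052, Trp63 -0.022, Mcm4 0.0095, Col11a2 0.065, Nr3c1 0.10, Ankrd1 -0.29, Fn1 0.30, Ckm -0.038, Acan 0.27, Ptgs2 0.17, Myh2 -0.71, Runx2 0.016, Ttn -0.0148, Myh7 -0.092, Tnnt1 -0.16 and Lyz2 0.040. With block and background covariate they were Prg4 0.69, Piezo1 0.12, Mmp9 0.10, Fn1 0.19, Myh2 -0.27, Myh7 -0.34 and Tnnt1 -0.16. Fosb was -0.39 and Mmp9 0.063 with the background covariate, and Fosb was -0.35 and Mmp9 0.047 without loaded library 4 and unloaded library 5. Prg4 was 0.19 with the block without both libraries numbered 4, and 0.23 without both and without a block, where Myh2 was -0.0074. With DESeq2, Fosb was -0.13 without loaded library 4, and Prg4 was 0.032 and Myh2 -0.16 without unloaded library 4. With each library left out, Fosb ranged from -0.13 to 1.72, Prg4 from -0.99 to 0.043 and Myh2 from -0.48 to 1.45.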
